A study of Homo sapiens with 4 samples.

Results

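The p53 pathway target genes were examined in TT-Seq counts from HCT116 cells treated or not to deplete the transcriptional regulator KAP1. The set holds 34 genes that were listed by symbol as established targets of the tumor suppressor p53, of 19901 protein-coding genes counted, and all 34 were found in the table. TT-Seq isolates the transcripts that incorporate 4-thiouridine (4sU) within minutes of its addition, so that its counts follow synthesis more closely than total RNA does. HCT116 is a colon cancer cell line that carries wild-type p53. In the derivative used here, of genotype KAP1_dTAG_CloneD5 (a single clone), the endogenous KAP1 protein is fused to a degron tag in both groups, the DMSO group included. In the first group, cells grown in serum-containing medium received DMSO for 8 h, and in the second they received the degrader dTAG-13 (dTAG, 500 nM) for 8 h. Both groups were then labeled with 500 μM 4sU for 10 min. There were 2 replicate libraries per group.

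Gene counts were between 93105627 and 102314741 per library. CPM below are counts per 1000000 gene counts of a library, scaled by the TMM method. The test covered 12612 genes, those that reached 50 counts in each of the 4 libraries. Epithelial markers were present in every library, with EPCAM at 133 to 140 CPM and KRT8 at 362 to 437 CPM. Of the 4, edgeR called 0, with 1 (CDH1, at 0.24) at an unadjusted p under 0.05, and CDH1 was called higher in 7 of 15 alternatives, DESeq2 included. Of 4 markers of other cell types, the leukocyte genes PTPRC and CD3E had at most 3 counts in a library and the endothelial gene PECAM1 24 to 39, while the fibroblast collagen gene COL1A1 had 420 to 538 counts and stood at -0.12 without a call. The RNA of TRIM28, the gene for KAP1, does not check the depletion, because dTAG acts on the protein.

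p53 is a transcription factor that is stabilized by DNA damage and other stress and switches on genes for cell cycle arrest, apoptosis, DNA repair and metabolic adjustment. One of its targets, MDM2, encodes the ubiquitin ligase that marks p53 for degradation, which closes a negative feedback loop. KAP1 is known to bind MDM2 and to cooperate with it in restraining p53. The comparison of dTAG with DMSO therefore bears on synthesis from p53 target genes after 8 h of KAP1 depletion, with no stress applied.

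p53 binds DNA as a tetramer at an element made of a pair of 10-base half-sites. The hg38 sequence within 5000 bases on either side of each counted gene start was searched for the p53 consensus, a run of 20 bases with no spacer between the half-sites. The 4 central bases of each half-site had to be C, then A or T, then A or T, then G, and at most 2 of the other bases could depart from the consensus. The consensus reads the same on both strands, so a single search covers both. Of the 34 genes, 11 (32.4%) held at least 1 such match, against 998 of all 19901 genes (5.01%). Matches in the members whose calls or roles matter below are shown here, read on the strand of the gene, with the 4 central bases of each half-site in capitals.
CDKN1A: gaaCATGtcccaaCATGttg
PMAIP1: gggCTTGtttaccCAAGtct
CCNG1: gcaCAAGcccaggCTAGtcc
GADD45A: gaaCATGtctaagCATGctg
PLK2: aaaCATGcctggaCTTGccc
SPATA18: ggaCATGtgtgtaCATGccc
ZMAT3: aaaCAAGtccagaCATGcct
FAS: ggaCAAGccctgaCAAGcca
The CDKN1A match lies at chr6:36676449-36676468 and begins 10 bases before the counted start of the gene, with 2 departures from the consensus. The PMAIP1 match lies outside the gene at chr18:59899549-59899568, 398 bases before the start, also with 2 departures. The matches of PLK2 (chr5:58462274-58462293, 2033 bases before the start) and ZMAT3 (chr3:179070188-179070207, in an intron 2072 bases after it), both on the minus strand, have 0 departures. Those of CCNG1 (chr5:163437926-163437945) and GADD45A (chr1:67686775-67686794) lie in introns with 1 departure, and those of SPATA18 (chr4:52051957-52051976, intron) and FAS (chr10:88991309-88991328, exon) have 2. CCNG1 holds a second match, and AEN, RRM2B and TNFRSF10B hold 1 or more that are not shown. A match describes letters in this window, and binding of p53 was not measured.

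Of the 34 genes, 33 passed the count minimum. TNFRSF10C, which encodes a decoy death receptor, had 7 and 15 counts with DMSO and 5 and 3 with dTAG and was not tested. With an adjusted p under 0.05 as the call, 10 of the 33 genes were lower with dTAG, 1 was higher and 22 were not called. Over all 12612 tested genes, 7.1% were called, 3.66% lower and 3.44% higher, whereas 30.3% of the p53 targets were called lower and 3.03% higher. The split depended on the settings. DESeq2 called 4 members higher and 11 lower, and 5.31% and 4.43% of all tested genes. With a factor from the ERCC spike-in RNAs as a covariate, 5 members were called higher and 14 lower, and 3.5% and 5.67% of all tested genes. After trends on GC content and gene length were removed, it was 7 members higher and 18 lower, and 10.6% and 7.46% of all tested genes.

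Over the 33 members, log2 fold changes had a median of -0.17, against -0.015 for all tested genes, with 25 genes below 0 and 8 above. When ERCC totals served as library sizes, the medians rose to 0.44 for the p53 targets and 0.63 for all tested genes, so that the p53 targets lay above 0 but below the other genes. The ERCC counts differed within the groups, at 14798 and 25165 with DMSO and 13870 and 9551 with dTAG. A rise of all genes was not tested. In that setting edgeR called 0 of all tested genes, higher or lower, and 0 p53 targets had an unadjusted p under 0.05. Of the 10 genes called lower in the main fit, 2 stayed below 0. Relative to the DMSO mean, the members' median (log2) was -0.16 for dTAG replicate 1 and -0.21 for dTAG replicate 2, while DMSO replicates 1 and 2 lay at -0.0074 and 0.0074. The pooled SD between replicates was 0.025. Both dTAG libraries lay below both DMSO libraries for 21 genes and above them for 5, and the groups overlapped for 7. Among all tested genes, 30.7% lay below and 28.1% above in this way. The libraries are bulk, so that fewer cells active at a gene and less synthesis per cell cannot be told apart.

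**Figure D1:**
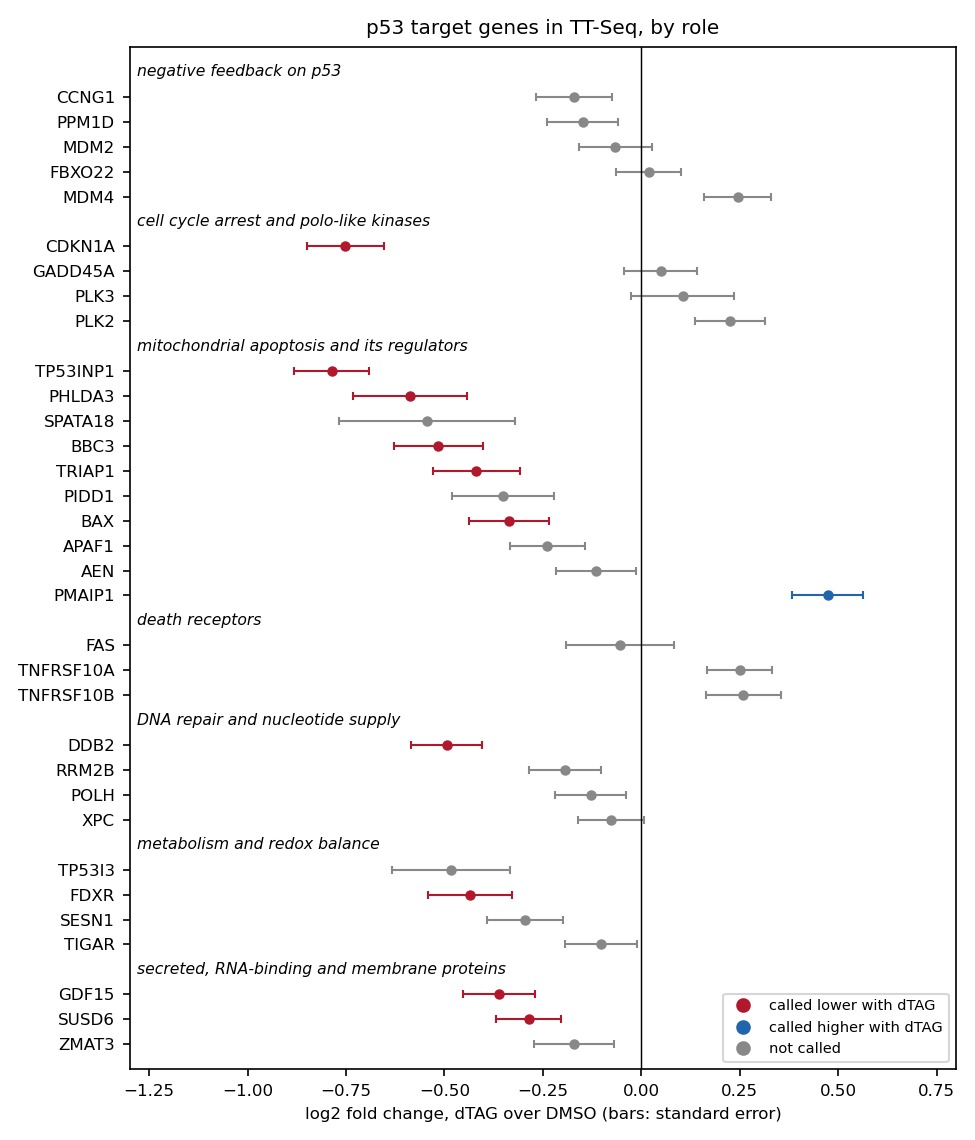
Log2 fold change of dTAG over DMSO (x axis, TMM scale) for the 33 tested p53 target genes (y axis), grouped by role, with bars for the standard error and n = 2 libraries per group. The 10 genes called lower range from -0.79 for TP53INP1 to -0.29 for SUSD6, PMAIP1 stands at 0.47, and with ERCC totals as library sizes all values shift upward, to a median of 0.63 for all tested genes.

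Genes of the negative feedback on p53 held 0 calls among 5 by edgeR, with log2 fold changes from -0.17 to 0.24. MDM2 (ENSG00000135679.23, chromosome 12 from 68808175 to 68850686) stood at 238 and 209 CPM with DMSO and 210 and 218 CPM with dTAG. The groups overlapped, since both dTAG libraries lay between the DMSO libraries. The log2 fold change of -0.07 (standard error 0.092) had an edgeR adjusted p of 0.67. PPM1D, the phosphatase that removes activating phosphates from p53 and its kinases, stood at -0.15 and CCNG1, cyclin G1, at -0.17. FBXO22, a ubiquitin ligase subunit, stood at 0.02. MDM4, the relative of MDM2 that blocks the activation domain of p53, had 153 and 147 CPM with DMSO and 175 and 180 CPM with dTAG. Its groups did not overlap, at a log2 fold change of 0.24 (standard error 0.085) and an edgeR adjusted p of 0.079. After the trends on GC content and length were removed, MDM2, PPM1D and CCNG1 were called lower, at -0.17, -0.25 and -0.26, and MDM4 was called higher at 0.18. The 3 lower calls were also made with the ERCC factor. MDM4 was the 1 gene of this group with an unadjusted p under 0.05 in edgeR's test, and the 1 gene called by DESeq2. The opposite-strand gene for carboxypeptidase M, with a mean of 5.30 CPM with DMSO, covers 8491 of the 42512 bases of MDM2.

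In the group of cell cycle arrest genes, CDKN1A was called lower and the other 3 were not called. CDKN1A (ENSG00000124762.13, chromosome 6 from 36676459 to 36687339) encodes p21, the inhibitor of cyclin-dependent kinases through which p53 halts the cell cycle. It stood at 204 and 244 CPM with DMSO and 140 and 126 CPM with dTAG. Both dTAG libraries lay well below both DMSO libraries, with means of 224 ± 27.7 and 133 ± 9.70 CPM (SD, n = 2). The level was 40.6% lower, at -0.75 on the log2 scale (standard error 0.097), with an edgeR adjusted p of 5.6e-05. CDKN1A was also the member with the most counts per length, at 20.6 ± 2.55 CPM per kilobase with DMSO (SD, n = 2), a percentile of 98.3 among tested genes. It was called in 14 of 15 alternatives, all but the one with ERCC totals, in which no tested gene was called. The 15 alternatives include the fits without 1 library and a replicate block with crossed numbers, which was chosen after seeing the data. The crossed block called 12.6% of all tested genes higher and 12.7% lower. CDKN1A stood at -0.55 with trends on GC content and length removed and -0.56 with the ERCC factor. Without any 1 library its log2 fold change lay between -0.87 and -0.62. GADD45A, a stress sensor at the G2/M transition, stood at 0.05 with overlapping groups. The polo-like kinases PLK2 and PLK3, which act in stress checkpoints, stood at 0.23 and 0.10. PLK2 had 86.8 and 88.5 CPM with DMSO and 111 and 94.5 CPM with dTAG, so its groups did not overlap. GADD45A, PLK2 and PLK3 were called higher after removal of the trends on GC content and length, at 0.24, 0.22 and 0.39, and PLK2 and PLK3 also with the ERCC factor.

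Genes of mitochondrial apoptosis and its regulators, the largest group, had 5 lower calls (50%) and 1 higher (10%) of 10 tested. Over all tested genes 3.66% were called lower and 3.44% higher. By share, the 3 members described last had more lower calls (66.7%). The median of the 10 genes of mitochondrial apoptosis and its regulators was -0.39 (log2). TP53INP1 (ENSG00000164938.13, chromosome 8 from 94925971 to 94949411) encodes a nuclear protein that promotes apoptosis and autophagy downstream of p53. It stood at 48.9 and 50.8 CPM with DMSO and 30.2 and 27.6 CPM with dTAG. The replicates of each group were close, at 49.9 ± 1.34 and 28.9 ± 1.86 CPM (SD, n = 2), and the groups were far apart. The level was 42.0% lower, at -0.79 on the log2 scale (standard error 0.095), with an edgeR adjusted p of 3.5e-05. Like CDKN1A it was called in 14 of 15 alternatives, and with the trends on GC content and length removed it stood at -0.83. Its whole interval lies within NDUFAF6 on the opposite strand, a gene with means of 160 CPM with DMSO and 174 CPM with dTAG that was not called (log2 fold change 0.13). The strand setting of the counting is not given in the sources used here, so reads of the pair may be shared.

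The effectors of the mitochondrial pathway moved in both directions. BBC3 (ENSG00000105327.17, chromosome 19 from 47220821 to 47232766) encodes PUMA, a BH3-only protein that neutralizes BCL2 and its relatives. It stood at 27.2 and 33.0 CPM with DMSO and 22.0 and 20.1 CPM with dTAG. Both dTAG libraries lay below both DMSO libraries, with a log2 fold change of -0.52 (standard error 0.11) and an edgeR adjusted p of 0.009. BBC3 stood at -0.25, still called, with the trends on GC content and length removed, and lost its call with the ERCC factor at -0.30. PMAIP1 (ENSG00000141682.11, chromosome 18 from 59899947 to 59904306) encodes NOXA, another BH3-only protein, which binds MCL1. It stood at 72.8 and 61.6 CPM with DMSO and 92.8 and 93.7 CPM with dTAG. Here both dTAG libraries lay above both DMSO libraries, with means of 67.2 ± 7.91 and 93.3 ± 0.654 CPM (SD, n = 2). The log2 fold change of 0.47 (standard error 0.090) had an edgeR adjusted p of 0.0031. PMAIP1 was called in 12 of 15 alternatives, at 0.25 with the ERCC factor. It was not called with ERCC totals or without either dTAG library, at 0.48 without dTAG replicate 1 and 0.47 without dTAG replicate 2. BAX (ENSG00000087088.19, chromosome 19 from 48954814 to 48961798), which forms pores in the outer mitochondrial membrane, stood at 33.0 and 38.1 CPM with DMSO and 28.3 and 28.0 CPM with dTAG. It stood at -0.34 (standard error 0.10) and, with an edgeR adjusted p of 0.0498, just inside the threshold. The call was lost in 9 of 15 alternatives, among them the removal of the trends on GC content and length, where BAX stood at -0.14.

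Further members of this group act around the pathway. PHLDA3 (ENSG00000174307.6, chromosome 1 from 201464382 to 201469237), a repressor of AKT signaling, stood at 17.1 and 22.7 CPM with DMSO and 14.9 and 11.5 CPM with dTAG. The groups did not overlap, but the replicates of each were spread, and the log2 fold change of -0.59 (standard error 0.14; edgeR adjusted p 0.019) became -0.33 with the trends on GC content and length removed and, without a call, -0.20 with the ERCC factor. TRIAP1 (ENSG00000170855.3, chromosome 12 from 120443960 to 120446412), a small inhibitor of apoptosis, stood at 26.7 and 30.6 CPM with DMSO and 22.8 and 20.1 CPM with dTAG. It lay lower in both dTAG libraries, at -0.42 (standard error 0.11; edgeR adjusted p 0.027), and lost its call with the ERCC factor at -0.26. TRIAP1 lies wholly within ENSG00000111780 on the opposite strand, which was itself called lower at -0.59, and reads of the pair cannot be told apart without the strand setting. SPATA18, which acts in mitochondrial quality control, had 160 to 283 counts, the fewest of the tested members, and stood at -0.54 with a standard error of 0.22 and an edgeR adjusted p of 0.13. APAF1, the scaffold of the apoptosome, stood at -0.24, the caspase-2 activator PIDD1 at -0.35 and the nuclease gene AEN at -0.12, none of them called. In edgeR's test, 9 of the 10 genes of this group, all but AEN, had an unadjusted p under 0.05. With the trends on GC content and length removed, APAF1 and SPATA18 were called lower at -0.37 and -0.65. Both were also called lower with the ERCC factor, at -0.43 and -0.91. AEN stood at 0.04 and 0.15 in these settings, without a call. For PIDD1, which had the highest GC content of the members (62.6%), the value was -0.04 with the trends on GC content and length removed.

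Death receptors, which trigger apoptosis from the cell surface, held 0 calls among 3 by edgeR, with 2 at an unadjusted p under 0.05, and DESeq2 called the same 2, both receptors of the ligand TRAIL. TNFRSF10A, or DR4, stood at 110 and 111 CPM with DMSO and 134 and 130 CPM with dTAG. TNFRSF10B, or DR5, stood at 398 and 409 CPM with DMSO and 473 and 493 CPM with dTAG. In both genes each dTAG library lay above each DMSO library, at 0.25 (standard error 0.082; edgeR adjusted p 0.066) and 0.26 (standard error 0.096; edgeR adjusted p 0.094). Both were called higher in 8 of 15 alternatives, among them DESeq2, the ERCC factor and the removal of the trends on GC content and length. FAS stood at -0.05, at 10.4 to 12.7 CPM over all 4 libraries, with overlapping groups.

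Genes of DNA repair and nucleotide supply had both dTAG libraries below both DMSO libraries in all 4 cases, and 1 of the 4 was called. Among all tested genes, 30.7% lay below in this way and 3.66% were called lower. The 4 genes of metabolism and redox balance and the 3 members described last also all lay below in this way. DDB2 (ENSG00000134574.11, chromosome 11 from 47214464 to 47239240), which recognizes ultraviolet lesions for nucleotide excision repair, stood at 57.2 and 63.4 CPM with DMSO and 43.3 and 42.3 CPM with dTAG. The groups were well apart, with a log2 fold change of -0.49 (standard error 0.090; edgeR adjusted p 0.0021). It was called in 12 of 15 alternatives and stood at -0.45 with the trends on GC content and length removed. RRM2B, a subunit of the p53-inducible ribonucleotide reductase, stood at -0.19, the translesion polymerase gene POLH at -0.13 and the lesion sensor XPC at -0.08.

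Genes of metabolism and redox balance had 1 call of 4 by edgeR and 2 by DESeq2. FDXR (ENSG00000161513.11, chromosome 17 from 74862496 to 74873031), the mitochondrial ferredoxin reductase, stood at 28.4 and 32.0 CPM with DMSO and 23.3 and 21.3 CPM with dTAG. Its dTAG libraries lay below its DMSO libraries, at -0.44 (standard error 0.11; edgeR adjusted p 0.018). TP53I3, a quinone oxidoreductase, stood at 11.6 and 15.8 CPM with DMSO and 10.5 and 9.07 CPM with dTAG. Its groups did not overlap, and its log2 fold change of -0.48 (standard error 0.15) had an edgeR adjusted p of 0.054, while DESeq2 called it lower. With the ERCC factor it stood at -0.11 without a call. TP53I3 lies wholly within FAM228B on the opposite strand, which stood at -0.03. SESN1, a sestrin that restrains mTORC1, stood at -0.29 (edgeR adjusted p 0.065) and TIGAR, a fructose bisphosphatase, at -0.10. With the trends on GC content and length removed, FDXR was no longer called at -0.19, nor was it with the ERCC factor at -0.31, and SESN1, TP53I3 and TIGAR were called lower at -0.46, -0.36 and -0.18.

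Of the remaining 3 members, 2 were called lower. GDF15 (ENSG00000130513.6, chromosome 19 from 18374730 to 18389176), a secreted stress cytokine, stood at 152 and 177 CPM with DMSO and 133 and 123 CPM with dTAG. Both dTAG libraries lay lower, with a log2 fold change of -0.36 (standard error 0.092; edgeR adjusted p 0.022). It stood at -0.21 with the trends on GC content and length removed and at -0.20 with the ERCC factor, called in both. SUSD6 (ENSG00000100647.7, chromosome 14 from 69611595 to 69715142), which encodes a membrane protein with a sushi domain, stood at 99.4 and 98.2 CPM with DMSO and 82.8 and 79.2 CPM with dTAG. Its groups were narrow and apart, at -0.29 (standard error 0.082; edgeR adjusted p 0.040). ZMAT3, an RNA-binding protein that regulates splicing, stood at -0.17 and was not called. Of the 10 genes called lower, only CDKN1A (10%) held a match to the p53 consensus in the window searched. The share was 5.08% of all tested genes and 4.99% of all genes called lower. PMAIP1, the 1 gene called higher, also held a match. Elements with a spacer or other central bases are not found by this search, so a gene without a match may still hold one.

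**Figure D2:**
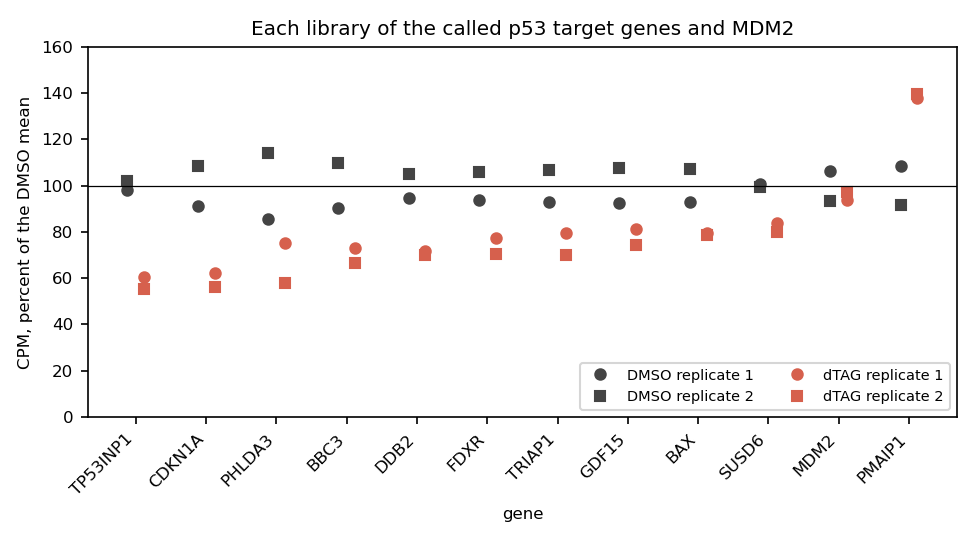
CPM of each library as a percent of the DMSO mean (y axis) for the 11 called p53 target genes and MDM2 (x axis), with DMSO in grey and dTAG in red, circles for replicate 1 and squares for replicate 2. Both dTAG libraries lie below both DMSO libraries in the 10 genes called lower and above them in PMAIP1. The 11 genes were picked by their calls, so this separation is not a separate check. The dTAG libraries of MDM2 fall between its DMSO libraries.

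The calls rested on few libraries. In 9 of the 10 genes called lower, DMSO replicate 2 lay above DMSO replicate 1, and in all 10 dTAG replicate 2 lay below dTAG replicate 1. Among all 33 tested members these orders held in 17 and 23 genes. Without dTAG replicate 1, CDKN1A, PHLDA3 and TP53INP1 stayed called, and without dTAG replicate 2 CDKN1A and TP53INP1 did. All 10 log2 fold changes stayed below 0, from -0.85 to -0.32 and from -0.72 to -0.25 respectively. Calls over all tested genes also became few, 0.523% higher and 0.571% lower without dTAG replicate 1 and 0.381% higher and 0.159% lower without dTAG replicate 2. Without DMSO replicate 1, 5 members were called higher and 14 lower, but so were 22.2% and 21.3% of all tested genes. Without DMSO replicate 2, 6 members were called higher and 16 lower, and 6.41% and 5.45% of all tested genes. Without DMSO replicate 2, PHLDA3 stood at -0.37, and BAX lost its call at -0.23.

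GC content moved with these values. Across all tested genes the log2 fold change ran against GC content (Spearman's rho -0.56) and with gene length (rho 0.42). Across the 33 p53 targets rho was -0.32 for GC content and 0.11 for length, where genes share the libraries and are not independent replicates. The median GC content was 52.7% for the 10 genes called lower, 42.1% for the 22 not called and 44.9% for all tested genes. After a lowess trend on GC content and then on length was removed from each library, the median of the p53 targets was -0.19, and 8 of the 10 lower calls remained. FDXR and BAX lost theirs. Within the same setting 10 further members were called lower (MDM2, PPM1D, CCNG1, APAF1, SPATA18, RRM2B, TIGAR, SESN1, TP53I3 and ZMAT3). A further 6 were called higher (MDM4, GADD45A, PLK2, PLK3, TNFRSF10A and TNFRSF10B). With the ERCC factor, the lower calls that remained were those of CDKN1A, TP53INP1, DDB2, GDF15 and SUSD6. That setting also called MDM2, PPM1D, CCNG1, APAF1, SPATA18, RRM2B, TIGAR, SESN1 and ZMAT3 lower, which made 14 lower calls. It newly called PLK2, PLK3, TNFRSF10A and TNFRSF10B higher. The part of GC content and length in the differences was not tested.

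**Figure D3:**
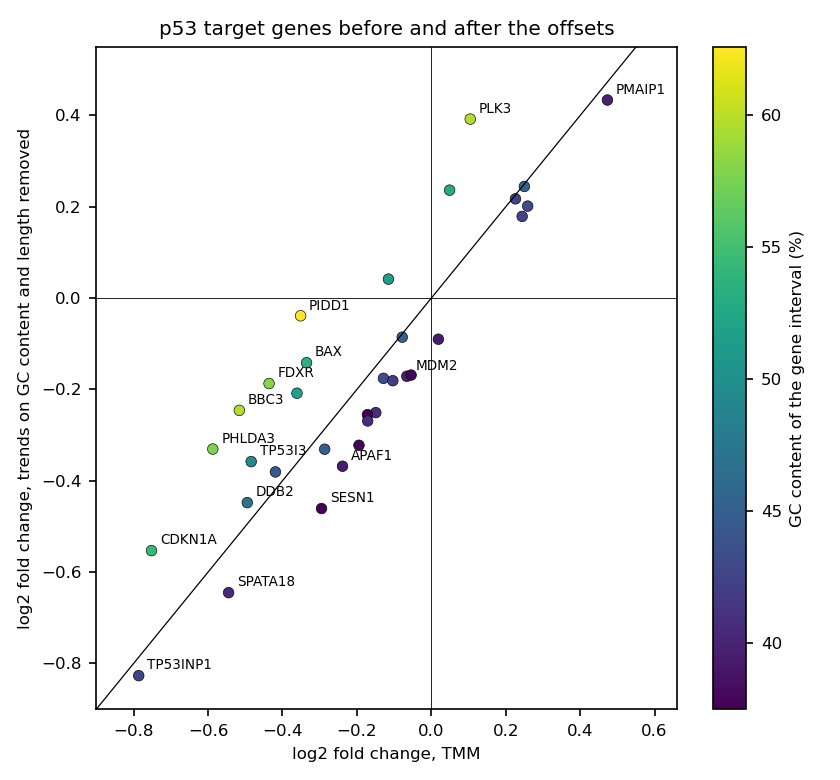
Log2 fold change of dTAG over DMSO on the TMM scale (x axis) and with the trends on GC content and length removed (y axis) for the 33 tested p53 target genes, each a point colored by the GC content of its gene interval, with a line of equality. GC-rich genes such as BBC3, FDXR and PIDD1 lie above the line and move toward 0, and GC-poor genes such as SESN1 and APAF1 lie below it.

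In DMSO-treated cells, most of these 33 p53 targets lay high among the tested genes in counts per length. The median of the 33 was 2.87 CPM per kilobase, where the tested genes had a median of 1.06, and their median percentile was 80.7. The median percentile was 55.7 for the further p53 targets described below and 75.3 for the genes upstream in the pathway. CDKN1A was followed by AEN at 15.8, PMAIP1 at 15.4, PLK2 at 13.96 and GADD45A at 13.9 CPM per kilobase. Among AEN, PMAIP1, PLK2 and GADD45A, neighbors in this order differed by less than the larger of their SDs between the DMSO libraries. These SDs were 2.74 for AEN, 1.81 for PMAIP1 and 1.07 for GADD45A. CDKN1A lay above AEN by more than the larger SD of that pair. SPATA18 was the lowest tested member, at 0.0557 CPM per kilobase, and TNFRSF10C lay below it at 0.00744.

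**Figure D4:**
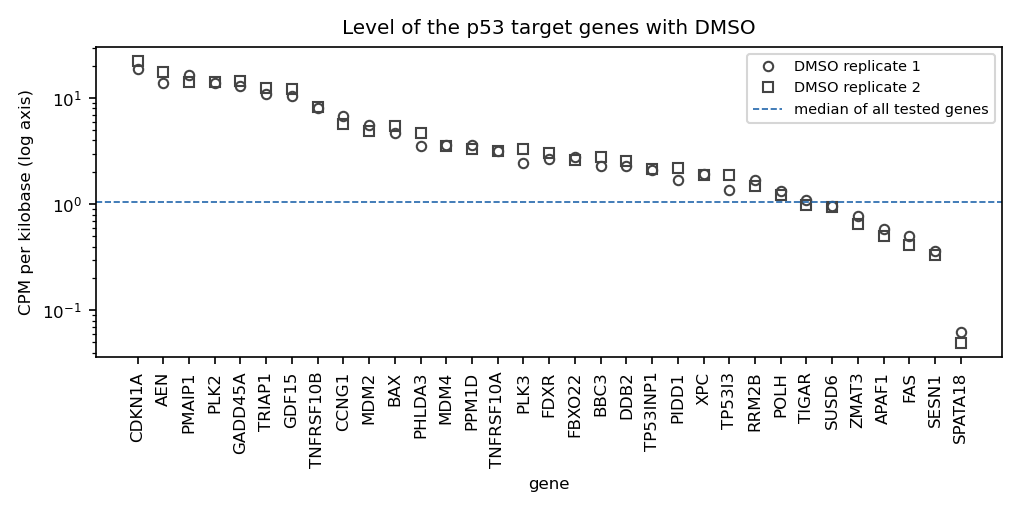
Level with DMSO in CPM per kilobase of gene (y axis, log scale) of the 33 tested p53 target genes (x axis), with a circle and a square for the 2 replicates and a dashed line at the median of all tested genes, 1.06. CDKN1A is at the top at 20.6, SPATA18 at the bottom at 0.0557, and most genes lie above the line.

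A second list of 49 further p53 targets from general knowledge, 45 of them tested, gave 3 calls higher (6.67%) and 4 lower (8.89%), against 3.44% and 3.66% of all tested genes, at a median of -0.12 on the log2 scale against -0.015. With upper-quartile normalization, which called 2.02% of all tested genes higher and 6.89% lower, it was 3 higher and 9 lower. By DESeq2 it was 3 and 8, and with ERCC totals its median turned to 0.52, below that of all genes. BTG2, an antiproliferative factor, stood at 27.9 and 30.5 CPM with DMSO and 19.2 and 16.6 CPM with dTAG, at -0.71 (standard error 0.11; edgeR adjusted p 5.8e-04). The calcium channel gene ORAI3 was called lower at -0.57, the ribosomal protein paralog RPS27L at -0.36 and the plexin gene PLXNB2 at -0.31, though ORAI3 and PLXNB2 lost their calls with the trends on GC content and length removed, at -0.37 and -0.02, and with the ERCC factor, at -0.26 and -0.15. Among the higher genes, SESN2, a sestrin, rose by 0.46 and the ephrin receptor gene EPHA2 by 0.42. The sestrin genes thus stood apart, with SESN2 called higher and SESN1 at -0.29 without a call, and their difference was not tested. A match to the p53 consensus was present in 16 of the 49 genes (32.7%).

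A further list, of 28 genes that act upstream in the p53 pathway, all tested, gave 1 call higher and 1 lower, each 3.57% of the list and close to the share among all tested genes, at a median of 0.03 on the log2 scale. With upper-quartile normalization the median was -0.04 with 0 higher and 2 lower, with the ERCC factor it was -0.08 with 0 and 1, and by DESeq2 3 were called higher and 1 lower. ATR, the kinase that signals replication stress to p53, stood at 112 and 91.7 CPM with DMSO and 126 and 133 CPM with dTAG. It was called higher at 0.35 (standard error 0.094; edgeR adjusted p 0.030), stood at 0.18, still called, with the trends on GC content and length removed, and lost its call with the ERCC factor at 0.07. TRIM28 was called lower at -0.37, and lost its call with those trends removed, at -0.10, and with the ERCC factor, at -0.23. A match to the p53 consensus was present in 2 of these 28 genes (7.14%).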

How the data were processed

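TT-Seq libraries of HCT116 KAP1 dTAG cells were made after 8 h of DMSO or dTAG, with 2 replicates per group. The authors deposited raw counts, whole numbers without normalization, for whole protein-coding genes and for 92 ERCC RNAs. Per the submitters' processing notes and the methods, reads were trimmed with Trim Galore 0.6.4, mapped to hg38 with STAR and counted with featureCounts (Subread 1.6.3). The strand setting and the treatment of reads in overlapping genes are not given in the sources used here. All columns of values were used.

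The test was edgeR 4.0.16 (in R 4.3.3) with TMM and the two-sided quasi-likelihood F test, without a replicate block, and Benjamini-Hochberg adjustment over 12612 genes that reached 50 counts in each of the 4 libraries. The common biological coefficient of variation was 7.84%, so that 2 replicates, rather than depth, limit precision. A standard error is the absolute log2 fold change over the root of its F statistic. The methods name spike-in normalization with RUVSeq without the function or number of factors, so ERCC settings were alternatives, beside DESeq2 1.42.0, upper-quartile normalization, a likelihood ratio test, other count filters, genes that overlap no other gene, lowess offsets (span 0.3) on GC content and length, a replicate block and leaving out each library. The ERCC factor was built from the 14 ERCC RNAs past the count minimum. Its values were -0.047 and 0.80 for DMSO replicates 1 and 2 and -0.20 and -0.56 for dTAG replicates 1 and 2. The factor thus differs between the groups and is partly confounded with treatment. The fits were tested on simulated data. GC content and sites were read from hg38 over the intervals in the table, of which 19802 had a symbol. Exons and introns came from GENCODE 44, where 19784 genes overlapped the same identifier.

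All 34 members were named, in an order by role. Called members and MDM2, CDKN1A and BBC3 were given every library's value, and from the other lists called genes and TRIM28 were named, except for items that are not reported here. The members and lists were chosen with earlier results of these data known, and BTG2, TP53INP1 and SPATA18 had been seen in a table of the study. Values of other members that are given library by library were picked after they were seen.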

Additional observations from a re-analysis of the deposited data

How the results depend on the processing

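Each called p53 target gene kept its direction under the alternatives, where values with ERCC totals were first taken relative to the median of all genes. That step takes out the shift shared by all genes, so the direction in that setting is not a separate check. Without it, 2 of the 10 genes called lower stayed below 0 with ERCC totals. The medians were then 0.44 for the p53 targets, 0.52 for the other p53 targets and 0.66 for the regulators. In that setting edgeR called 0 genes over the whole table, with 0 p53 targets at an unadjusted p under 0.05. Counts are given below as higher and lower, in the order p53 targets, other p53 targets, regulators. With 1 and 10, 3 and 4, and 1 and 1 in the fit reported, they were 4 and 11, 3 and 8, and 3 and 1 by DESeq2 and 4 and 12, 3 and 8, and 3 and 1 by the likelihood ratio test. The likelihood ratio test called 729 of all tested genes higher and 864 lower. Upper-quartile normalization gave 1 and 13, 3 and 9, and 0 and 2, with medians of -0.24, -0.20 and -0.0417. The ERCC factor gave 5 and 14, 3 and 4, and 0 and 1, with medians of -0.26, -0.12 and -0.0762. No count filter gave 9 lower among the other targets, where 673 genes of the whole table were called higher and 744 lower. GC and length offsets gave 7 and 18, 6 and 7, and 3 and 1. Genes that overlap no other gene gave a median of -0.0765 for the other targets, and 1 and 8 calls for 21 p53 targets.

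The replicate block gave 1 and 5, 2 and 1, and 0 and 0, where 162 and 178 of the 12612 tested genes were called. With GC and length offsets it gave 7 and 19, 6 and 9, and 3 and 1, where 1503 and 1124 of the tested genes were called. The methods name no pairing of the replicates. Deviations of same-numbered libraries had a correlation of -0.24 across genes, which cannot show whether the cultures were paired. With crossed numbers, chosen after seeing the data, the counts were 5 and 14, 5 and 13, and 6 and 2, while 12.6% and 12.7% of all tested genes were called. Without 1 library, where the lone library of a group is assumed to vary like the other group, p53 targets called higher ran from 0 to 6 and lower from 2 to 16, other targets from 0 to 8 and 0 to 14, and regulators from 0 to 8 and 0 to 4. The medians ran from -0.23 to -0.10, from -0.13 to -0.0651 and from -0.000864 to 0.0664. The cause of these shifts was not tested. Depth limits TNFRSF10C, under the count minimum, and SPATA18.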

Other observations

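Among the other p53 targets, KITLG, which encodes the ligand of the receptor KIT, stood far above the rest in counts. It had 6092 and 5347 CPM with DMSO and 5171 and 5199 CPM with dTAG, with both dTAG libraries below both DMSO libraries, and its log2 fold change was -0.14 (standard error 0.14; edgeR adjusted p 0.54). With the trends on GC content and length removed it was called lower at -0.32, and with the ERCC factor at -0.33. Its level with DMSO was 64.9 CPM per kilobase, against 20.6 for CDKN1A. SFN, which encodes the 14-3-3 sigma protein that holds cells at the G2/M transition, stood at 34.3 CPM per kilobase and at -0.03 with overlapping groups, but was called higher, at 0.32, with the trends on GC content and length removed. KITLG and SFN were singled out after their values were seen.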
